A study of Mus musculus with 4 samples.

Results

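The antiviral genes induced by type I interferon were followed in mouse tissue labelled PDL, the periodontal ligament, whose fibres anchor teeth in the jaw. The group holds 38 genes, chosen by name as known antiviral interferon response genes and read through the RefSeq accessions of the array probes. Of these 38 genes, 36 had a matched probe, out of 22907 genes with a named probe on the array. Mx1 and Mx2 had no probe matched by accession and were not analysed here. Where a gene had several probes, the brightest over the arrays stood for it. This concerned 14 members, and 22 had 1 probe.

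RNA came from Mkx-KO and WT mice at 10 weeks of age and from Mkx-KO and WT mice at 4 weeks of age. Mkx encodes Mohawk, a homeobox transcription factor of tendon and ligament, and the labels give no cell type or promoter that would restrict the knockout. Each of the 4 groups was 1 one-colour array, so there was no replicate, no p-value is given for a pair of arrays, and the number of mice behind each preparation is not in the labels. Strain and sex are not given in the sources used here. The number of arrays limits the precision, and every difference below describes these 4 preparations.

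Type I interferons are secreted when cells sense viral or displaced nucleic acid. They bind a receptor shared by most cells, whose Janus kinases phosphorylate STAT proteins, among them STAT2. These join IRF9 in a complex that enters the nucleus and binds the interferon-stimulated response element, which switches on antiviral effectors and also more of the sensors and transcription factors of the same pathway. IRF7 then widens the production of interferon. Low tonic signalling keeps many of these genes expressed in tissue without infection.

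The response element is visible in the DNA before the starts of several members, and promoters of some members with a match are shown for that reason. A core was searched on either strand of windows from 250 bases before to 50 bases after annotated starts (RefSeq, build GRCm38.p6). It is the half-site GAAA repeated with 2 bases of any kind between the copies, which reads TTTC on the other strand. A window was at hand for 28 members. The core was found in 14 of them (50%), against 1079 of 27025 genes in the same table (3.99%). The lines below give the 160 bases before the start, 5′ to 3′ along the gene, with capitals marking matches to the core.

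Ifit1, chr19:34640729-34640888, plus strand: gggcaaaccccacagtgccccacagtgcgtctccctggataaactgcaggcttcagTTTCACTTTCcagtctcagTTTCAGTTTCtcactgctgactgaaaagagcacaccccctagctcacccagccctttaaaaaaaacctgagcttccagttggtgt
Ifit3, chr19:34583369-34583528, plus strand: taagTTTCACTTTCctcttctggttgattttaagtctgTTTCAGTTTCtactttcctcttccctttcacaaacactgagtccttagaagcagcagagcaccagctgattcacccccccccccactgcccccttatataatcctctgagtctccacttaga
Ifit1bl1 first window, chr19:34601969-34602128, minus strand: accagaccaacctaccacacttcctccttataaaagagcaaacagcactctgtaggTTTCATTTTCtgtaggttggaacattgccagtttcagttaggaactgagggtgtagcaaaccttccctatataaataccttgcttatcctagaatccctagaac
Ifit1bl1 second window, chr19:34599428-34599587, minus strand: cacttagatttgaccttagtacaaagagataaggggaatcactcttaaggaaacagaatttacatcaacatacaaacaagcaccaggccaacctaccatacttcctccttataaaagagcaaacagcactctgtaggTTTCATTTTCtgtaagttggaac
Isg15, chr4:156200819-156200978, minus strand: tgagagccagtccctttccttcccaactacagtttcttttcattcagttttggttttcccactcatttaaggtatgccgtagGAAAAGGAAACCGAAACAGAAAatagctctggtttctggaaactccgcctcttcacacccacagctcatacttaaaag
Oas1a, chr5:120907526-120907685, minus strand: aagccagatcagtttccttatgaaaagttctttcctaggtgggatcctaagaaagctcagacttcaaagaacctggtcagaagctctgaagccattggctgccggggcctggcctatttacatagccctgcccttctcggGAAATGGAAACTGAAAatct
Rsad2, chr12:26456453-26456612, minus strand: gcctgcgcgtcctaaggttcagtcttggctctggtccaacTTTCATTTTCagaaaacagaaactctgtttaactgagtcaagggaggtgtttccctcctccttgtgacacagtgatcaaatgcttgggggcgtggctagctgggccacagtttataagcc
Oas3, chr5:120777660-120777819, minus strand: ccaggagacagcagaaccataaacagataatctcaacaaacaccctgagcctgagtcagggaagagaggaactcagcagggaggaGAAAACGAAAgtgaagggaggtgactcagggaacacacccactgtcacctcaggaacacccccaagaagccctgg

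Isg15 carried 3 overlapping matches from 78 to 57 bases before its start, which makes its run of capitals longer than 1 core. Ifit1 and Ifit3 carried 2 separate matches each, and Oas1a carried 2 that overlap. Matches to the core thus lay before Ifit1 and Ifit3, which were lower in Mkx-KO at 10 weeks. They also lay before Rsad2 and Oas3, which were not. Among members with a window, 13 measured ones had a match to the core. Their median Mkx-KO minus WT difference at 10 weeks was -0.51 (log2), and that of the 14 without a match was -0.52. At least 2-fold lower at that age were 2 members with a match and 4 without it, against 1.37% of all genes. At 4 weeks the medians were -0.30 with a match and -0.24 without it. Other spellings of the element were not searched, so a member without a match may still hold it. Ifit2, Irf7, Ifi44 and Oasl1, all at least 2-fold lower at 10 weeks, had a window without a match and are not shown. Usp18 and Zbp1, both at least 2-fold lower at 10 weeks, had no window. The gamma-activated site letters TTCNNNGAA, the element of the interferon-gamma response, were found in 7 of the 28 members (25%), against 9.55% of all genes. In 2 places a match to these letters overlapped a match to the core, in Bst2 and in Ifitm3. A match describes letters in a window and is not evidence that a factor bound there.

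**Figure D1:**
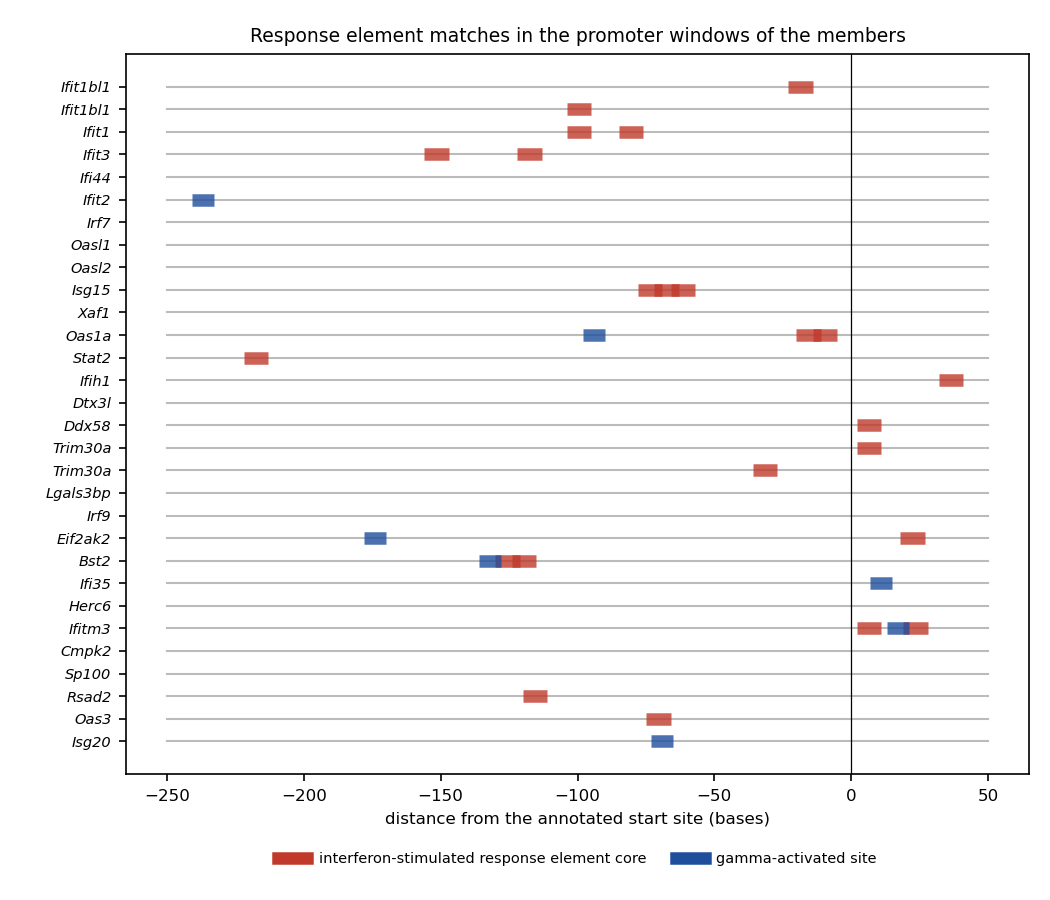
Matches to the interferon-stimulated response element core (red) and to the gamma-activated site letters (blue) in windows from 250 bases before to 50 bases after the annotated start, in bases from the start. Each grey line is a window of a member (windows without a match are drawn once per gene), ordered from the top by the Mkx-KO minus WT difference at 10 weeks with Ifit1bl1, which has a bound only, first. Matches occur at the top and at the bottom of that order.

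A level below is the log2 processed signal of a probe minus the 75th percentile of all non-control probes of its array, so 0 stands for a probe at that percentile. A difference is Mkx-KO minus WT, or 10 minus 4 weeks, on this log2 scale. A gene counted as measured when the scanner software called it well above background on both arrays compared, and as called when the difference was at least 2-fold. The technical error combines the error estimates of the software for both arrays. It does not cover variation between mice, and its median over the members was 0.20 in each comparison. Levels were not compared between genes, since each probe has its own response.

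Of the spots, 61.8% to 66.6% per array were well above background and none was saturated. Mkx itself gave -2.10 at 10 weeks and -1.65 at 4 weeks, with a second probe at -1.94 and -1.38, and the place of these probes relative to the deleted part was not used here. Of 11 periodontal ligament fibroblast markers, all were well above background on every array, and their summed level (in units of the 75th percentile) was 2778 in Mkx-KO and 2584 in WT at 10 weeks, and 2658 in Mkx-KO and 2690 in WT at 4 weeks. The preparations also held RNA of other tissues in unequal amounts. The summed level of 10 olfactory and nasal markers was 694 and 493 in Mkx-KO and WT at 10 weeks, and 2.44 and 171 in Mkx-KO and WT at 4 weeks. In such bulk tissue, fewer cells of a type and less RNA per cell cannot be told apart.

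The array of WT ligament at 10 weeks stood above the other 3 for most of the antiviral genes. Among the 35 members well above background on all arrays, 30 (85.7%) had their highest level there, against 21.6% of 15500 genes. Of the same 35, 29 had their lowest level in Mkx-KO at 4 weeks (82.9%, against 23.6% of all genes). The full order from high to low, with both arrays of 10 weeks above both of 4 weeks and WT above Mkx-KO within each age, was followed by 24 members (68.6%) and by 8.53% of all genes. The median level of the members was 0.53 in Mkx-KO and 1.26 in WT at 10 weeks, and 0.00 in Mkx-KO and 0.26 in WT at 4 weeks. Without the array of WT at 10 weeks, the other 3 lay within 0.58 of each other for the median of these 35 members, with a range from 0.05 for Ifi27 to 1.49 for Ifit2.

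**Figure D2:**
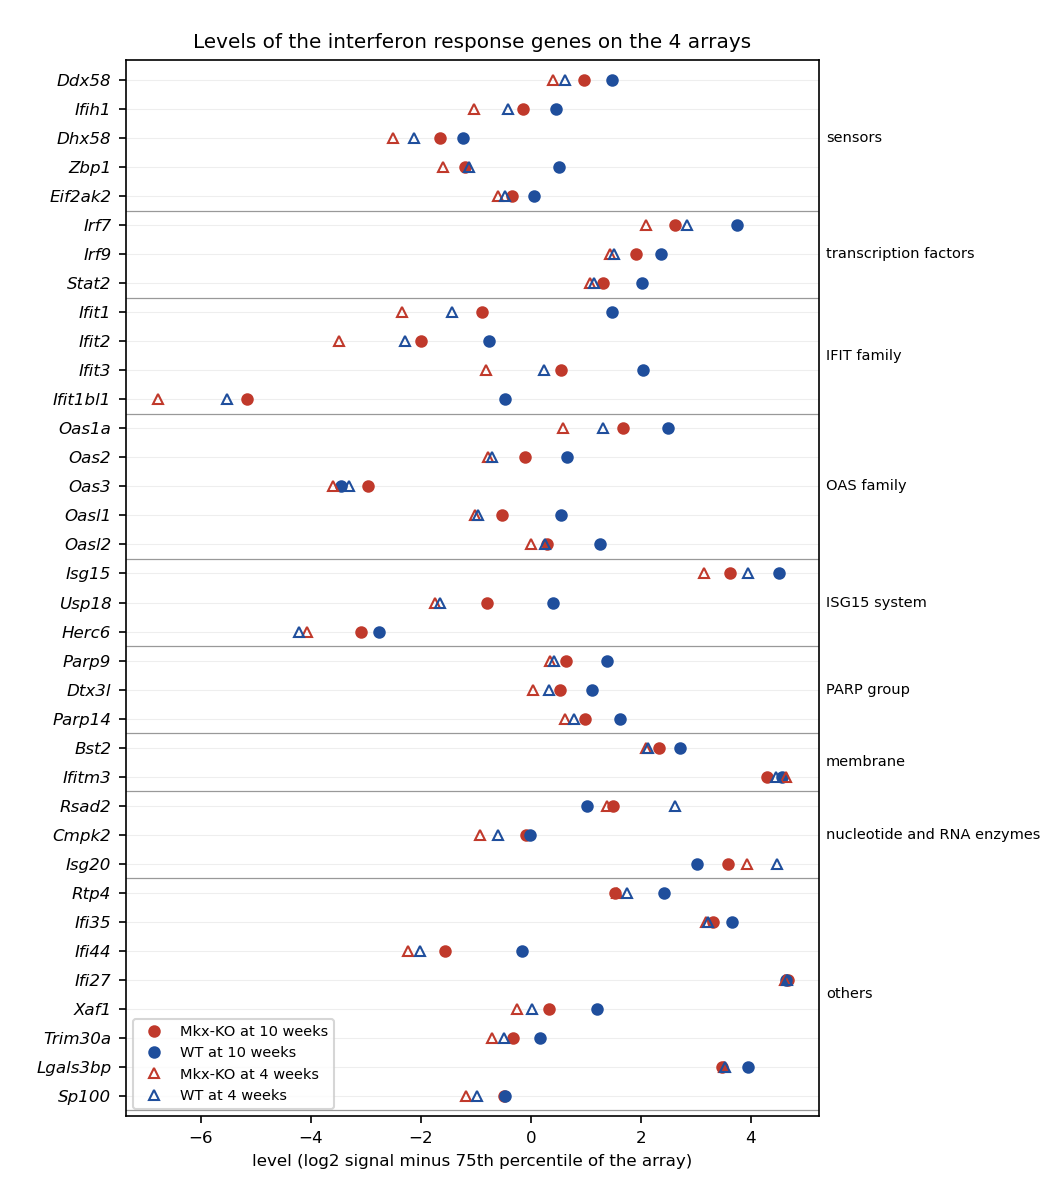
Level of each member with a probe on the 4 arrays, in log2 units above or below that array's 75th percentile, grouped by role. Filled circles are 10 weeks and open triangles 4 weeks, with Mkx-KO in red and WT in blue. The blue circle of WT at 10 weeks lies farthest right for 30 of the 35 members well above background on all arrays; Rsad2 and Isg20 have it farthest left.

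At 10 weeks the comparison of Mkx-KO with WT ligament gave lower levels across most of the antiviral group. Of 35 members measured, 8 were at least 2-fold lower in Mkx-KO (22.9% of members, against 1.37% of all genes) and 0 were at least 2-fold higher (against 1.04% of all genes). The 8 were Ifit1, Zbp1, Ifit3, Ifi44, Ifit2, Usp18, Irf7 and Oasl1. After normexp background correction 4 members were at least 2-fold lower (11.4%, against 0.583% of all genes). The difference was negative for 31 of 35 members, against 48.5% of all genes. The median member difference was -0.59, or 1.51-fold lower, beside a median of 0.01 over 16453 genes. With Ifit1bl1 at its bound it was -0.62. In size, 23 members were lower by more than 2 technical errors, 2 were higher by more than that and 10 lay within it. This was not counted over all genes, of which 8% lay at or below -0.40 and 92% at or below 0.43. The 5th percentile of all genes lay at -0.54, and 19 members lay below it.

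At 4 weeks the same side was favoured by smaller amounts. Of 35 members measured, 3 were at least 2-fold lower in Mkx-KO (8.57%, against 3.31% of all genes), namely Rsad2, Ifit2 and Ifit3, and 0 were at least 2-fold higher (against 0.472% of all genes). After normexp correction 1 was at least 2-fold lower (2.86%, against 1.48% of all genes). The difference was negative for 33 of 35 members, against 41.2% of all genes. Its median was -0.22, beside 0.06 over all genes. Only 10 members were lower by more than 2 technical errors, and the other 25 lay within them. This was not counted over all genes, of which 10% lay at or below -0.42 at 4 weeks. The negative sign at both ages was shared by 29 of 35 members, against 19.0% of 15500 genes. At both ages Ifit2 and Ifit3 were at least 2-fold lower, as were 17 of the 15500 genes in all. For 29 members the size of the difference was larger at 10 than at 4 weeks, against 43.8% of all genes. The ages share no array in these comparisons.

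**Figure D3:**
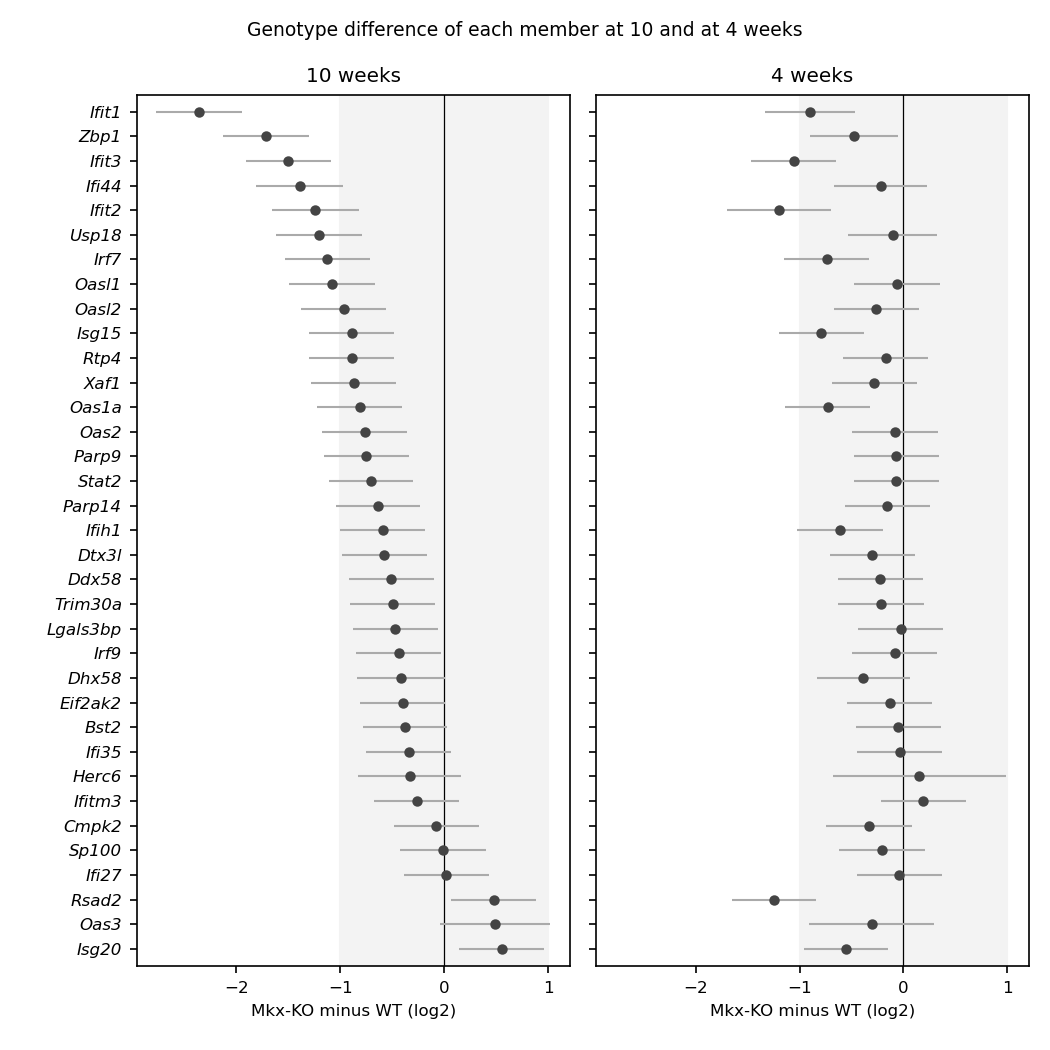
Difference Mkx-KO minus WT (log2) of each measured member at 10 weeks (left) and 4 weeks (right), ordered by the value at 10 weeks. Bars are 2 technical errors of the scanner software to each side, not an error over mice, and the shaded band marks less than 2-fold. At 10 weeks 8 members lie left of the band; at 4 weeks Rsad2, Ifit2 and Ifit3 do.

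Of the groups of members by role, the IFIT family had the lowest median at both ages, -1.5 at 10 weeks and -1.06 at 4 weeks. These proteins bind viral RNA, for instance RNA with a foreign cap, and block its translation. Ifit1 stood at -0.88 in Mkx-KO and 1.48 in WT at 10 weeks, and at -2.34 in Mkx-KO and -1.44 in WT at 4 weeks. Its difference of -2.36 at 10 weeks put Mkx-KO at 19.5% of WT, the widest gap among the measured members, and the difference at 4 weeks was -0.90. Ifit3, which binds and stabilises IFIT1 in human cells, stood at 0.55 in Mkx-KO and 2.05 in WT at 10 weeks, and at -0.82 in Mkx-KO and 0.24 in WT at 4 weeks. Ifit2 stood at -1.99 in Mkx-KO and -0.75 in WT at 10 weeks, and at -3.49 in Mkx-KO and -2.29 in WT at 4 weeks. Ifit2 differed by nearly the same amount at both ages, -1.24 and -1.20, and Ifit3 by -1.5 and -1.06. All 3 genes were highest in WT at 10 weeks and lowest in Mkx-KO at 4 weeks.

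Ifit1bl1, an Ifit1-like gene of the same cluster on chromosome 19, was well above background in WT at 10 weeks alone. Its processed signal was 7.24 in Mkx-KO and 223 in WT at 10 weeks, and 2.59 in Mkx-KO and 5.77 in WT at 4 weeks. With the dimmest signal that the software still called well above background standing in for the dimmer array, Mkx-KO at 10 weeks lay at least 18.6-fold lower than WT, and the gene was at least 16.6-fold higher at 10 than at 4 weeks in WT. No fold is given for Mkx-KO against WT at 4 weeks or for age in Mkx-KO, where both arrays lacked a signal well above background. Probes of closely related Ifit and Oas genes may read each other's RNA, since the probe sequences were not analysed here.

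The 5 sensors of nucleic acid all had negative differences at both ages. In Mkx-KO, 1 was at least 2-fold lower at 10 weeks (against 1.37% of all genes) and 0 at 4 weeks (against 3.31%). Zbp1, which senses left-handed nucleic acid and can start cell death, stood at -1.19 in Mkx-KO and 0.52 in WT at 10 weeks, and at -1.60 in Mkx-KO and -1.13 in WT at 4 weeks. The gap at 10 weeks was -1.71, with a second, dimmer probe at -0.94, the widest disagreement in size between probes of a member at that age. Ddx58, which encodes the RNA sensor RIG-I, stood at 0.96 in Mkx-KO and 1.47 in WT at 10 weeks, and at 0.40 in Mkx-KO and 0.62 in WT at 4 weeks. Its 4 probes all gave negative differences at 10 weeks, -0.51 to -0.17, and 3 measured ones gave -0.22 to 0.00 at 4 weeks, so its direction at 4 weeks was not settled. Ifih1, the gene of the long RNA sensor MDA5, differed by -0.59 at 10 weeks and -0.62 at 4 weeks. Dhx58, a regulator of both sensors, differed by -0.42 and -0.39, and Eif2ak2, the gene of the kinase PKR that halts translation on double-stranded RNA, by -0.40 and -0.13.

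Among the transcription factors, Irf7 was called at 10 weeks. It stood at 2.63 in Mkx-KO and 3.76 in WT at 10 weeks, and at 2.10 in Mkx-KO and 2.84 in WT at 4 weeks. The differences were -1.13 and -0.74, and a second probe gave -0.86 and -0.63. Stat2 differed by -0.70 at 10 weeks and -0.07 at 4 weeks, and Irf9 by -0.44 and -0.08, so both gaps at 4 weeks lay within the technical error. All 3 factors were highest in WT at 10 weeks.

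Active enzymes of the OAS family make short adenylate chains that switch on RNase L, which degrades RNA. Oasl1 stood at -0.53 in Mkx-KO and 0.55 in WT at 10 weeks, and at -1.02 in Mkx-KO and -0.96 in WT at 4 weeks. Its difference was -1.08 at 10 weeks, with a second probe at -1.12, and -0.06 at 4 weeks, where the second probe gave 0.34, so only the value at 10 weeks had a settled sign. Oasl2 stood at 0.30 in Mkx-KO and 1.26 in WT at 10 weeks, and at 0.00 in Mkx-KO and 0.26 in WT at 4 weeks. The gaps of Oasl2 were -0.97 and -0.26, and those of Oas2 -0.77 and -0.08. Oas1a differed by -0.82 and -0.73, with similar sizes at both ages. Oas3 had the opposite sign to the rest of its family at 10 weeks, on dim signals. It stood at -2.96 in Mkx-KO and -3.45 in WT at 10 weeks, and at -3.60 in Mkx-KO and -3.30 in WT at 4 weeks. Its differences of 0.49 and -0.30 had technical errors of 0.26 and 0.30, so both lay within 2 technical errors.

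Isg15 encodes a ubiquitin-like protein that is attached to other proteins during the interferon response. It stood at 3.62 in Mkx-KO and 4.51 in WT at 10 weeks, and at 3.16 in Mkx-KO and 3.95 in WT at 4 weeks, with differences of -0.89 and -0.79. Usp18 removes ISG15 and also dampens the interferon receptor. Usp18 stood at -0.80 in Mkx-KO and 0.40 in WT at 10 weeks, and at -1.75 in Mkx-KO and -1.65 in WT at 4 weeks, so its gap was -1.20 at 10 weeks and -0.10 at 4 weeks. Herc6, the ligase that attaches ISG15 in mice, stood at -3.09 in Mkx-KO and -2.76 in WT at 10 weeks, and at -4.06 in Mkx-KO and -4.22 in WT at 4 weeks, and neither difference (-0.33 and 0.15) exceeded 2 technical errors.

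PARP9, its partner ligase DTX3L and PARP14 modify proteins with ADP-ribose and enhance STAT signalling. The 3 genes differed by -0.75 (Parp9), -0.58 (Dtx3l) and -0.64 (Parp14) at 10 weeks, and by -0.07, -0.30 and -0.16 at 4 weeks. None of these values at 4 weeks exceeded 2 technical errors.

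The membrane proteins were nearly level between the genotypes. Bst2, the gene of tetherin, which holds budding virus on the cell surface, differed by -0.38 at 10 weeks and -0.05 at 4 weeks. Ifitm3, which hinders viral fusion, stood at 4.30 in Mkx-KO and 4.57 in WT at 10 weeks, and at 4.64 in Mkx-KO and 4.45 in WT at 4 weeks. Its differences of -0.26 and 0.19 both lay within 2 technical errors.

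Rsad2 and Isg20 ran against the group. Rsad2 encodes viperin, which makes a chain-terminating nucleotide, and Isg20 encodes an exonuclease of RNA. Rsad2 stood at 1.5 in Mkx-KO and 1.02 in WT at 10 weeks, and at 1.38 in Mkx-KO and 2.63 in WT at 4 weeks. Isg20 stood at 3.59 in Mkx-KO and 3.03 in WT at 10 weeks, and at 3.93 in Mkx-KO and 4.48 in WT at 4 weeks. Both were higher in Mkx-KO at 10 weeks (0.48 and 0.55) and lower at 4 weeks (-1.25 and -0.55), highest in WT at 4 weeks and lowest in WT at 10 weeks. Their second probes had the same signs, 0.51 and -1.07 for Rsad2 and 0.61 and -0.52 for Isg20. Cmpk2, a mitochondrial nucleotide kinase gene that lies next to Rsad2 on chromosome 12 and is induced with it in many cells, did not share this pattern: its differences were -0.08 and -0.33.

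Ifi44, an interferon-induced gene, and Xaf1, a pro-apoptotic one, were among the 12 members farthest apart at 10 weeks, as was Rtp4, which encodes a chaperone of certain receptors. Ifi44 stood at -1.56 in Mkx-KO and -0.17 in WT at 10 weeks, and at -2.24 in Mkx-KO and -2.02 in WT at 4 weeks. Xaf1 stood at 0.33 in Mkx-KO and 1.20 in WT at 10 weeks, and at -0.25 in Mkx-KO and 0.03 in WT at 4 weeks. Rtp4 stood at 1.53 in Mkx-KO and 2.42 in WT at 10 weeks, and at 1.58 in Mkx-KO and 1.75 in WT at 4 weeks. Their gaps at 10 weeks were -1.39, -0.87 and -0.89, and at 4 weeks each was within 2 technical errors (-0.22, -0.28 and -0.17). For Xaf1 a second, much dimmer probe gave -0.14 at 10 weeks.

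The remaining members differed less. Trim30a, a gene that restrains inflammatory signalling in mice, differed by -0.50 and -0.22, and Lgals3bp, the gene of a secreted glycoprotein that binds galectins, by -0.47 and -0.03. Ifi35 stood at 3.31 in Mkx-KO and 3.65 in WT at 10 weeks, and at 3.19 in Mkx-KO and 3.23 in WT at 4 weeks. Sp100, a component of nuclear bodies, was level at 10 weeks (-0.01). Ifi27 was level on all arrays, at 4.67 in Mkx-KO and 4.65 in WT at 10 weeks, and at 4.62 in Mkx-KO and 4.66 in WT at 4 weeks. At 4 weeks the 2 probes of Ifi35 disagreed in sign (-0.04 and 0.10), as did those of Ifi27 (-0.04 and 0.18). At 10 weeks 12 members had several measured probes, and no signs disagreed.

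Age was compared within each genotype. These comparisons use the same 4 arrays as the genotype comparisons, so a high array of WT at 10 weeks enters both, and the values are given side by side only. In Mkx-KO, 4 of 35 members were at least 2-fold higher at 10 than at 4 weeks (11.4%, against 6.25% of all genes) and 0 were at least 2-fold lower (against 3.84%). They were Ifit2 (1.49), Ifit1 (1.45), Ifit3 (1.37) and Oas1a (1.1), and after normexp correction 1 member was called (2.86%, against 3.04% of all genes). In WT, 11 of 35 members were at least 2-fold higher at 10 weeks (31.4%, against 5.01% of all genes) and 2 were at least 2-fold lower (against 3.83%). The widest gains in WT were those of Ifit1 (2.92), Usp18 (2.05), Ifi44 (1.86) and Ifit3 (1.81), and the 2 lower genes were Rsad2 (-1.61) and Isg20 (-1.45).

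The difference between 10 and 4 weeks was positive for 31 of 35 members in Mkx-KO, against 37.7% of all genes, and for 31 of 35 in WT, against 40.5% of all genes. The median member differed by 0.49 in Mkx-KO, beside -0.15 over all genes, and by 0.85 in WT, beside -0.10 over all genes. The negative members in Mkx-KO were Isg20 (-0.34), Ifitm3 (-0.34), Rtp4 (-0.05) and Lgals3bp (-0.02). Lgals3bp stood at 3.48 in Mkx-KO and 3.95 in WT at 10 weeks, and at 3.51 in Mkx-KO and 3.53 in WT at 4 weeks. In WT, besides Rsad2 and Isg20, Oas3 (-0.16) and Ifi27 (-0.01) were negative. The deposited scaling shifted the median of all genes between ages to 0.14 in Mkx-KO and 0.26 in WT. Under it, 9 members in Mkx-KO and 23 in WT were at least 2-fold higher at 10 weeks, and 1535 and 1536 genes in all were higher with 262 and 317 lower, against 979 and 806 higher with 601 and 617 lower under the 75th percentile. Relative to the median of all genes, the member median was 0.64 in Mkx-KO and 0.95 in WT under both scalings.

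**Figure D4:**
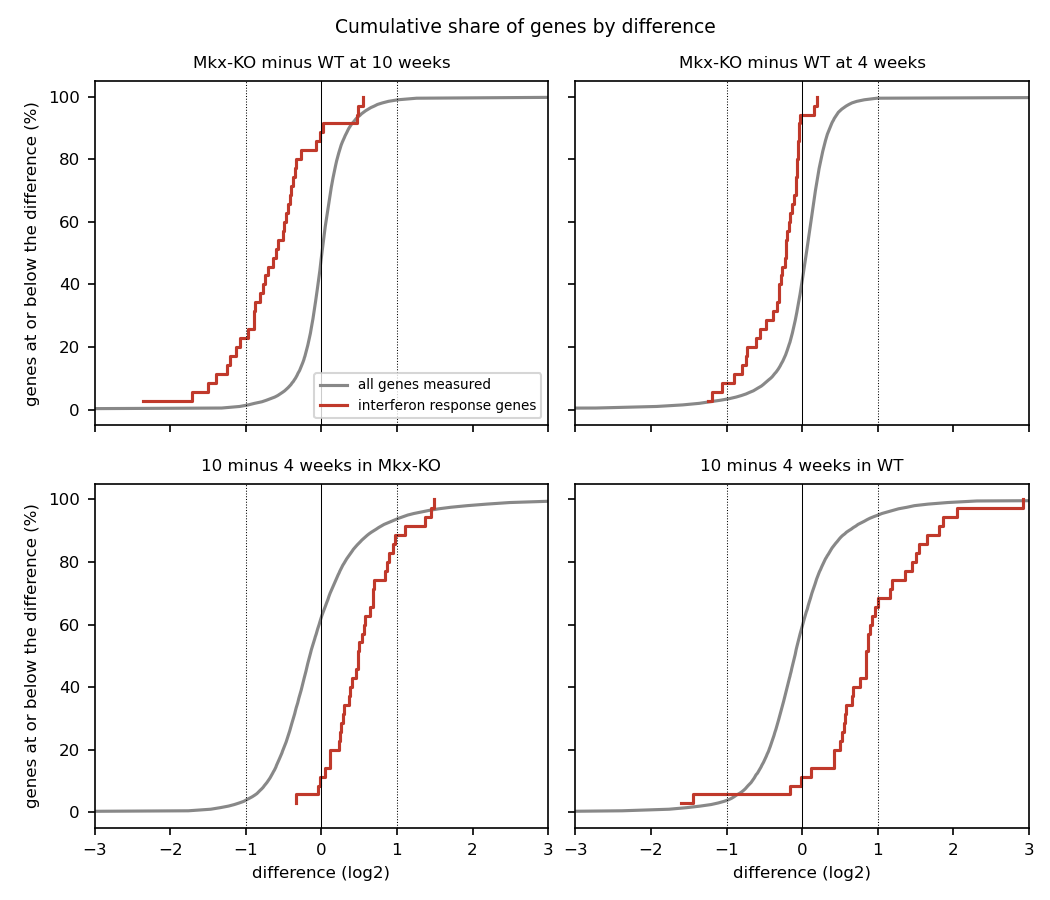
Percentage of genes at or below each log2 difference, for the measured members (red steps) and all measured genes (grey), with dotted lines at 2-fold. Panels are Mkx-KO minus WT at 10 and 4 weeks above and 10 minus 4 weeks in Mkx-KO and in WT below. Most members lie left of all genes in the upper panels, with medians of -0.59 and -0.22, and right of them in the lower panels, with medians of 0.49 and 0.85.

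The other layers of the pathway were read from lists of known genes. Of 20 interferon ligand genes, 17 had a probe, and 10 of these were not well above background on any array, including Ifnb1, the gene of interferon beta. The 7 measured at 10 weeks had a median Mkx-KO minus WT difference of -0.10 with 0 called. The largest mean difference belonged to Ifna9 (0.37 and 0.42), whose technical error was 0.30 at each age. No genotype difference is given for the 10 dim ligand genes.

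Receptors and Janus kinase genes were nearly level as a list, with a median of -0.08 at 10 weeks and 0.03 at 4 weeks over 13 genes. At 10 weeks 9 of these 13 had negative differences. Of the 13, 1 was called with the lower level in Mkx-KO (against 1.37% of all genes) and 0 with the higher (against 1.04%). At 4 weeks 5 of the 13 were negative and 0 were called. Ifnar1 and Ifnar2, which encode the type I interferon receptor, had genotype differences of -0.06 and -0.01 at 10 weeks, and their values at 4 weeks were -0.08 and 0.14. Ifnlr1, the receptor gene of type III interferon, differed by -0.36 and -0.27, and Socs3, a feedback inhibitor of cytokine receptors, by -0.10 and 0.46. Of 16 measured sensing and adaptor genes upstream of interferon, 0 were called at either age, with medians of 0.00 and 0.09. Tlr3, the receptor gene for double-stranded RNA in endosomes, differed by -0.12 and -0.54, and Tlr9, that for DNA, by 0.27 and 0.38.

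Other interferon-induced genes, which are not among the 38, had negative differences for 33 of 41 at 10 weeks and for 26 of 39 at 4 weeks. At 10 weeks 5 of 41 were at least 2-fold lower in Mkx-KO (against 1.37% of all genes) and 0 higher, with a median of -0.22. At 4 weeks 1 of 39 was at least 2-fold lower (against 3.31% of all genes), with a median of -0.05. The guanylate-binding protein gene Gbp3 differed by -1.95 and -0.72, Ifi205, of the DNA-binding p200 family, by -1.45 and -0.43, and the helicase gene Ddx60 by -1.30 and -0.27. Ifi27l2a differed by -0.82 at 10 weeks, but its second probe gave -0.09. Interferon-gamma response genes gave a median of -0.86 at 10 weeks with 9 of 23 at least 2-fold lower (against the same 1.37%), and of -0.19 at 4 weeks with 0 of 23 (against 3.31%). Among them, the chemokine gene Cxcl9 differed by -5.73 at 10 weeks and -0.87 at 4 weeks, and Cxcl10 by -3.84 and 0.34. The guanylate-binding protein genes Gbp2 and Gbp6 differed by -2.77 and -1.81 at 10 weeks, with -0.55 and -0.92 at 4 weeks. Ifng, the gene of interferon gamma, was not well above background in Mkx-KO at 10 weeks but was so in WT, which made it at least 3.28-fold lower in Mkx-KO. At 4 weeks it was well above background in Mkx-KO but not in WT, and at least 1.18-fold higher in Mkx-KO.

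**Figure D5:**
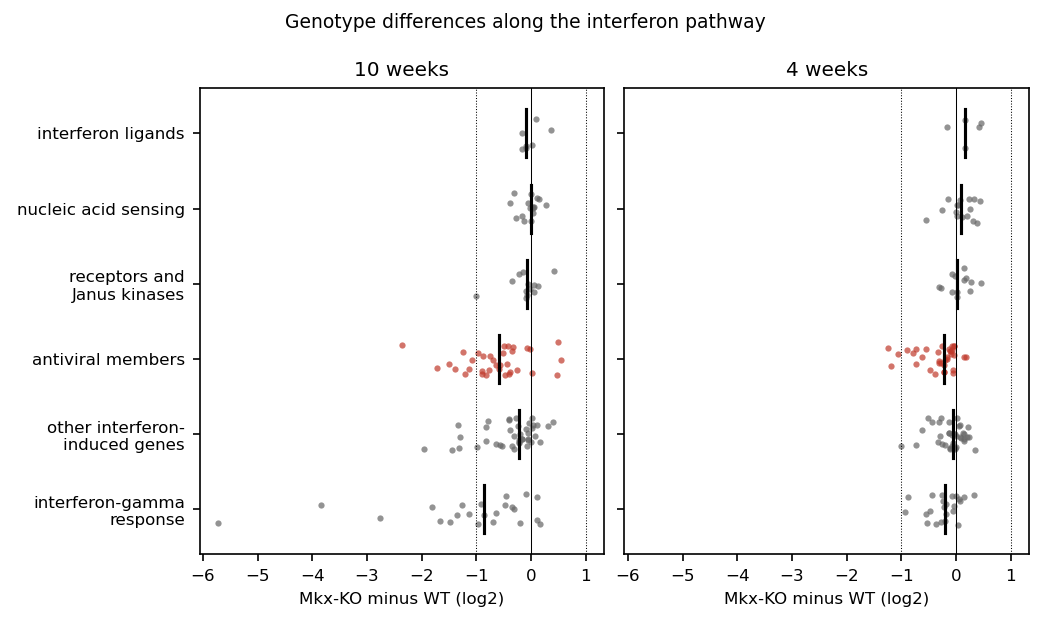
Difference Mkx-KO minus WT (log2) of measured genes along the interferon pathway at 10 weeks (left) and 4 weeks (right), with a black bar at each median and dotted lines at 2-fold. Vertical scatter within a row has no meaning. The antiviral members (red) have a median of -0.59 at 10 weeks, and the ligand, sensing and receptor rows have medians of -0.10, 0.00 and -0.08. The row of other interferon-induced genes has a median of -0.22, and the interferon-gamma row has the lowest, -0.86.

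Markers of other cells moved with the genotype as well, and their part in the antiviral differences was not tested. Of all genes, 1.37% were at least 2-fold lower and 1.04% higher in Mkx-KO at 10 weeks. The shares at 4 weeks were 3.31% lower and 0.472% higher. Of 12 oral epithelium markers, 11 were negative and 3 at least 2-fold lower in Mkx-KO at 10 weeks (median -0.76). At 4 weeks 11 of these 12 markers were positive (median 0.47). Their summed level was 517 in Mkx-KO and 938 in WT at 10 weeks, and 646 in Mkx-KO and 374 in WT at 4 weeks. Of 12 T and natural killer cell markers, 11 had a probe and 9 were measured, with 5 negative and 1 at least 2-fold lower at 10 weeks (median -0.24) and 7 negative and 2 at least 2-fold lower at 4 weeks (median -0.53). The defining markers Cd8a and Ncr1 were not well above background on any array. The 1 called at 10 weeks was Cd3g (-1.27). Of the same receptor complex, Cd3d differed by -0.56, with a second probe at -1.05. Cd3e differed by 0.17, with a second probe at 0.23. The summed level of this list was 9.07 in Mkx-KO and 8.50 in WT at 10 weeks, and 7.34 in Mkx-KO and 9.35 in WT at 4 weeks.

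Plasmacytoid dendritic cells are a main source of type I interferon, and macrophages respond to it strongly. Of the 10 plasmacytoid markers, 5 were negative and 0 at least 2-fold apart at 10 weeks (median -0.08). At 4 weeks 7 were negative (median -0.26) and 1 was at least 2-fold lower (against 3.31% of all genes). The 1 was Cox6a2 (0.31 at 10 weeks and -1.40 at 4 weeks), beside medians of 0.40 and -1.26 for the skeletal muscle markers. Ly6d of the same list differed by -0.89 and 0.72, beside medians of -0.76 and 0.47 for the oral epithelium markers. Which cells the RNA of these genes came from was not tested, so the list may not follow plasmacytoid cells alone. The defining marker Siglech differed by 0.15 and 0.01 with 1 of its 2 probes, and its other probe was not measured at either age. The probe used stood at 7.49 in Mkx-KO and 7.34 in WT at 10 weeks. Its level was the highest of the 10 markers on every array, so it weighs most in their sum. The summed level of the list was 293 in Mkx-KO and 306 in WT at 10 weeks, and 247 in Mkx-KO and 237 in WT at 4 weeks. The 12 macrophage and monocyte markers were all well above background, with medians of 0.19 and -0.10 and summed levels of 191 in Mkx-KO and 186 in WT at 10 weeks, and 178 in both at 4 weeks. Neutrophil markers had a median of 0.70 at 10 weeks and -1.12 at 4 weeks, and their summed level was 1177 in Mkx-KO and 860 in WT at 10 weeks, and 348 in Mkx-KO and 689 in WT at 4 weeks. Of the B cell markers, Mkx-KO was 2-fold or more above WT for 3 of 8 at 10 weeks (against 1.04% of all genes), with 0 negative and a median of 0.92. The same held for 3 of 7 at 4 weeks (against 0.472%), with 1 negative and a median of 0.94. Summed levels of the B cell list were 10.4 in Mkx-KO and 4.77 in WT at 10 weeks, and 13.9 in Mkx-KO and 6.88 in WT at 4 weeks.

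Skeletal muscle markers had medians of 0.40 at 10 weeks and -1.26 at 4 weeks. Their summed level was 102 in Mkx-KO and 75.8 in WT at 10 weeks, and 23.4 in Mkx-KO and 60.9 in WT at 4 weeks. Endothelial markers had medians of 0.13 and -0.03, with summed levels of 29.0 in Mkx-KO and 26.6 in WT at 10 weeks, and 29.6 in Mkx-KO and 29.3 in WT at 4 weeks. The olfactory and nasal list had a median of -0.23 at 10 weeks and -6.56 at 4 weeks.

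The position of the member spots on the slide was examined too. Spots surrounding each member spot had median differences between -0.03 and 0.11 at 10 weeks and between -0.05 and 0.10 at 4 weeks, small beside the called members. No member spot was marked as an outlier.

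The only fit with a residual error combined both ages, with genotype and age as terms. It made no call: in limma's test with Benjamini-Hochberg adjustment over 16791 genes, 0 were lower (0% of genes) and 0 higher (0%) in Mkx-KO at an adjusted p of 0.05, and the smallest adjusted p among the members was 0.999636. At an unadjusted p under 0.05, 7 of 35 members were lower (against 1.65% of all genes) and 0 were higher (against 1.06%). The 7 were Ifit1, Ifit2, Ifit3, Isg15, Oas1a, Irf7 and Ifih1. In limma's fit Ifit2 differed by -1.22 ± 0.13 and Ifit1 by -1.63 ± 0.46 (standard error, 4 arrays, adjusted p of 0.999636 each). The fit has 1 residual degree of freedom, so a difference that depends on age enters its error.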

How the data were processed

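RNA of 4 preparations was hybridised to 4 one-colour Agilent arrays on 1 slide. Per the submitters' processing notes, Agilent Feature Extraction 11.5.1.1 was used. The deposited processed signal is a spot intensity on a linear scale, background-subtracted and detrended on each array per the file headers. The deposited series table also holds intensity, equal to the processed signal times a factor per array of 1.54 to 2.08, whose origin is not given in the sources used here.

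Spots of a probe were averaged on the log2 scale, outlier spots were left out, and the 75th percentile of non-control probes was subtracted from the log2 of the deposited intensity. RefSeq accessions named 58.3% of 56605 probes. The array design is annotated on mm9, so no probe positions are given. A gene was called at 2-fold or more, with a bound where 1 array only was well above background. limma 3.58.1 (R 4.3.3) fitted genotype and age to all genes that 2 or more arrays read well above background, and was tested on simulated data. Other steps used Python 3.11.15.

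The members and lists were chosen with earlier results of these data known. Levels on every array are given for the 12 members farthest apart at 10 weeks, the 4 farthest at 4 weeks, members with a bound only, and members whose sign opposed the list median or whose probes disagreed. Up to 4 genes of a pathway list, by mean difference over both ages, could be named, with Ifnar1, Ifnar2, Ifnb1 and Mkx. A gene that this rule takes in is not reported here. Alternatives covered background correction, scaling, probe choice, filters, fold thresholds and forms of the limma fit.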

Additional observations from a re-analysis of the deposited data

Results flagged for a closer look

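Rsad2 and Isg20 moved in opposite directions at the 2 ages, each by more than 2 technical errors. Rsad2 was 0.48 higher in Mkx-KO than in WT at 10 weeks and differed by -1.25 at 4 weeks, a gap of 1.72 on the log2 scale between the ages. Isg20 differed by 0.55 at 10 weeks and -0.55 at 4 weeks, a gap of 1.11. With 1 array in each group, this difference between the ages was not tested.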

How the results depend on the processing

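The members' median kept its sign in each of the 4 comparisons under all 7 alternatives of correction, scaling, probe choice and filter. It moved by more than the median technical error with the deposited scaling alone, to 0.78 for age in Mkx-KO and 1.21 for age in WT. Of the counts at 2-fold, normexp correction left 4 members lower in Mkx-KO at 10 weeks, 1 lower at 4 weeks, and 1 higher at 10 than at 4 weeks in Mkx-KO. The deposited scaling gave 9 higher at 10 weeks in Mkx-KO and 23 in WT. A threshold of 1.5-fold gave 18 lower in Mkx-KO at 10 weeks, 8 at 4 weeks, and 13 and 23 higher with age in Mkx-KO and WT. Of all genes, under 4.5% and under 7% were that much lower at 10 and 4 weeks. At least 88% in Mkx-KO and 89.5% in WT lay below a 1.5-fold gain with age. A threshold of 3-fold gave 2 lower at 10 weeks, 0 at 4 weeks, 0 higher with age in Mkx-KO, and 5 higher and 1 lower with age in WT. Of all genes, under 0.5% and under 1.5% were 3-fold lower at 10 and 4 weeks. At least 97% in Mkx-KO and 98% in WT lay below a 3-fold gain with age, and under 1.5% were 3-fold lower in WT. The changed counts at 1.5-fold and 3-fold follow from the thresholds. The normexp correction added an offset of 50 to every signal, and the part of this offset in the changed counts was not tested. limma called 0 members under any of the 9 alternatives, with 0 to 9 lower and 0 higher at an unadjusted p under 0.05, the lowest count being that without an age term. Among single members, no called difference reversed. Signs changed under some alternative for Cmpk2, Herc6, Ifi27 and Sp100 at 10 weeks and for Bst2, Herc6, Ifi27, Ifi35 and Oasl1 at 4 weeks, all under 2-fold at the age named. Signs with age changed for Ifi27, Lgals3bp and Rtp4 in Mkx-KO and for Ifi27 and Oas3 in WT. No paired analysis was possible because each group had 1 array and hence no replicate numbers to pair; the limma fit with an age term compares the genotypes within each age. Dim signals limit the interferon ligand genes and Ifit1bl1.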
